A study of Homo sapiens with 24 samples.

Results

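HCT116 cells, an established human colon cancer line, were compared after reduction of all 3 TNRC6 paralogs and without it. The cells with reduction were TNRC6AB-/- cells, which carry a frameshift in TNRC6A and a large deletion in TNRC6B, transfected with siTNRC6C, a pool of 3 duplex RNAs against TNRC6C. The comparison cells were wild-type HCT116 transfected with siGL2, a duplex with no intended target in these cells. Each side had 3 RNA-seq libraries, so the comparison used 6 of the 24 libraries in the series, chosen by their labels alone. TNRC6AB-/- cells transfected with siGL2 and wild-type cells transfected with siTNRC6C, 3 libraries each, are given beside them because they hold the single steps of the same change. All 4 groups were lipid transfected. The double knockout was 1 purchased line and was seeded at a higher number per well, so loss of the genes, the history of that line and its growth cannot be told apart. TNRC6C was knocked down and not knocked out. Whether the 3 libraries of a group came from separate cultures is not given in the sources used here. The p-values thus measure the spread between libraries, which may be technical. That spread was unequal. The common coefficient of variation between libraries, beyond counting error, was 0.1 for wild-type siGL2. For the double knockout it was 0.034 under siTNRC6C and 0.057 under siGL2, and wild-type cells given siTNRC6C had 0.032. The fit pooled the spread of the 4 groups, so standard errors and p-values of comparisons with wild-type siGL2 may be too small.

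TNRC6 proteins, also called GW182 proteins, are scaffolds of RNA silencing. Their tryptophan repeats bind Argonaute (AGO) proteins that carry a microRNA, and their C-terminal part recruits the CCR4-NOT and PAN2-PAN3 deadenylases, after which the target mRNA is deadenylated, decapped and degraded. A microRNA finds its targets mainly by its seed, bases 2 to 8 from the 5′ end, which pairs with matching sites in 3′ UTRs.

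The reagent that carried the change is shown first, as the 3 guide strands of the siTNRC6C pool, with any added DNA overhang left out. Capitals mark bases 2 to 8 of each strand as listed. Guides 2 and 3 are 27 bases long. Whether they are trimmed in cells was not examined, so the marked bases may not be the seeds that AGO uses.
siTNRC6C guide 1: aAGUGGACguuugugguuc
siTNRC6C guide 2: uACUGAUGucaaccuggaaguguagaa
siTNRC6C guide 3: uGACAUUCauguuuggguucaguccag
Each guide was fully complementary to TNRC6C and to no other gene among the GENCODE 29 transcripts. Guides 1 and 3 matched coding sequence in transcript TNRC6C-211, in exon 5 of 23 (chr17:78049543-78049561, GRCh38, plus strand) and in exon 16 (chr17:78091440-78091466). Guide 2 matched the 3′ UTR of TNRC6C-211 in exon 23 (chr17:78105534-78105560). The best ungapped alignment to a TNRC6A transcript left 7, 11 and 7 mismatches for guides 1, 2 and 3, and the best to a TNRC6B transcript left 6, 11 and 10. The full sites of guides 1 and 2 were in 5 of 11 annotated TNRC6C transcripts and that of guide 3 was in 6.

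The microRNA families whose target lists are described below are shown for the same reason, since a seed defines a family. The mature sequences are from RefSeq (GRCh38.p14), with seeds in capitals. Within a seed family the seed is shared and the rest of the sequence varies. The miR-200 target list takes in miR-200b and miR-200a, whose seeds differ, and these are separate families in the seed matches below.
hsa-let-7a-5p: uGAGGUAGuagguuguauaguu
hsa-let-7b-5p: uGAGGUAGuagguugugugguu
hsa-miR-17-5p: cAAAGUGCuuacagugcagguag
hsa-miR-93-5p: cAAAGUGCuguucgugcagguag
hsa-miR-200b-3p: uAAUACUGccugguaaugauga
hsa-miR-200a-3p: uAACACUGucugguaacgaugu
hsa-miR-21-5p: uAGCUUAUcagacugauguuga

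Reads assigned to transcripts ran from 34158885 to 42689320 per library over the 6 libraries. Wild-type siGL2 replicate 3 stood apart from the other wild-type siGL2 libraries. It had the lowest depth, 4.33% of its reads on transcripts annotated as retained introns against 3.28% and 3.33% in replicates 1 and 2, and 4.32% to 4.55% in the TNRC6AB-/- siTNRC6C libraries. Counts of a list without it are given where they moved by 2 genes or more. Of 11 colon epithelial markers, 9 passed the filter on low counts, and EPCAM was at 168 to 193 CPM (counts scaled to library size with TMM factors) in wild-type siGL2 libraries, while VIL1 was at 0.125 to 0.171 CPM and LGALS4 and CDX1 were too low to be tested. Of 14 markers of blood, endothelium and fibroblasts, 8 were tested, 6 rose and 1 fell, with the summed level between 23.2 and 29.99 CPM in wild-type siGL2 and between 61.4 and 65.6 CPM in TNRC6AB-/- siTNRC6C libraries. COL1A1 and COL3A1 held most of that difference. Of the defining markers, CD3E and HBB were at 0 CPM on average in wild-type siGL2, and these, CDH5, LUM and PDGFRA were among those too low to be tested.

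Against wild-type siGL2, TNRC6AB-/- siTNRC6C cells had 8045 genes changed of 23135 tested, which is 34.8% of all genes. Of these, 4568 rose (19.7% of all tested genes) and 3477 fell (15%). A gene counts as changed here at a Benjamini-Hochberg adjusted p below 0.05 in edgeR's quasi-likelihood test and a log2 fold change beyond 0.6. Protein-coding genes alone had 15.3% rises and 16.9% falls, with a median log2 fold change of -0.02. The counts of gene lists below stand beside both sets of shares. The balance of rises and falls depended on the scaling. Under TMM scaling the median gene rose by 0.11 on the log2 scale, and with library size alone it rose by 0.25, with 5908 rises and 2650 falls. Falls outnumbered rises with RLE size factors (3950 rises and 4036 falls), in DESeq2 (3373 and 3825), with a stricter filter on low counts (2589 and 2616) and in a fit of all 24 libraries (2951 and 4094). Without wild-type siGL2 replicate 3 there were 5559 rises and 4056 falls. Levels are relative to the RNA in each library, and in bulk samples fewer cells of a type and less RNA per cell cannot be told apart.

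The targeted genes were examined first. TNRC6C (chr17:77959240-78108835) was at 52.6, 49.1 and 49.7 CPM in wild-type siGL2 libraries, at 124, 118 and 113 CPM in TNRC6AB-/- siGL2 libraries and at 20.8, 19.9 and 18.9 CPM in TNRC6AB-/- siTNRC6C libraries. The double knockout under siGL2 thus held more TNRC6C mRNA than wild type, and the groups did not overlap. siTNRC6C took TNRC6C down by 2.57 on the log2 scale inside the double knockout (SE 0.06, adjusted p = 6.5e-15) and left it 1.34 below wild-type siGL2 (SE 0.06, adjusted p = 1.1e-12). In wild-type cells siTNRC6C left 19.4, 20.4 and 20.3 CPM, which overlapped the range in the double knockout. Per transcript length the picture was different: TNRC6C was at 5.85, 6.16 and 8.24 TPM (read counts scaled by transcript length) in wild-type siGL2 libraries and at 6.65, 7.31 and 5.40 TPM in TNRC6AB-/- siTNRC6C libraries, ranges that overlap, against 18.2, 17.9 and 18.8 TPM in TNRC6AB-/- siGL2 libraries. With counts rebuilt from TPM and mean transcript length the fall from wild-type siGL2 was 0.59 on the log2 scale (adjusted p = 0.00025), just short of the fold threshold.

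TNRC6A (chr16:24610209-24827632) was at 123, 121 and 119 CPM in wild-type siGL2 and at 78.4, 80.6 and 78.7 CPM in TNRC6AB-/- siTNRC6C libraries, a fall of 0.61 on the log2 scale (SE 0.05, adjusted p = 4e-09). That fall did not hold per length. With counts rebuilt from TPM the TNRC6A difference was 0.15 in the other direction (adjusted p = 0.22), and its TPM was 18.7, 20.8 and 27.3 in wild-type siGL2 and 30.4, 39.1 and 37.5 in TNRC6AB-/- siTNRC6C libraries. A frameshift allele can still be transcribed, and these reads do not show protein. TNRC6B (chr22:40044817-40335808) was at 203, 202 and 211 CPM and at 75.3, 79.2 and 81.6 CPM, a log2 fold change of -1.39 (SE 0.05, adjusted p = 2.2e-13), and -1.59 with counts rebuilt from TPM. FAM83F, which overlaps TNRC6B, was at 33.1, 35.04 and 36.5 CPM in wild-type siGL2 and 29.9, 28.3 and 29.3 CPM in TNRC6AB-/- siTNRC6C libraries and was not called, and reads of overlapping genes may be split by the counting.

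Genes of the machinery that makes small RNAs and carries them to TNRC6 came next. Of 18 core RNA interference factors, 5 (27.8%) rose (AGO2, AGO3, AGO4, DICER1 and DGCR8) and 0 fell, beside 19.7% and 15% of all genes. Their median log2 fold change was 0.09 beside 0.11 over all genes. With RLE size factors, or without wild-type siGL2 replicate 3, 5 rose and 1 fell, and with counts rebuilt from TPM 3 rose. AGO2, the Argonaute with slicer activity, was at 329, 322 and 318 CPM in wild-type siGL2 and at 641, 652 and 674 CPM in TNRC6AB-/- siTNRC6C libraries, a rise of 1.02 (SE 0.05, adjusted p = 2e-11). AGO3 was at 85.1, 85.7 and 95.9 CPM and at 159, 158 and 169 CPM, a rise of 0.86 (SE 0.05). Both were already higher in TNRC6AB-/- siGL2 cells, by 0.83 and 0.62. AGO1 was at 142, 143 and 143 CPM and at 151, 157 and 162 CPM and was not called. DICER1, which cuts microRNA precursors and is itself on the let-7 target list, was at 99.3, 99.4 and 99.8 CPM and at 222, 219.9 and 233 CPM, a rise of 1.18 (SE 0.05, adjusted p = 3.2e-12). DGCR8, the partner of DROSHA, rose by 0.71 (SE 0.04). With counts rebuilt from TPM the rises of AGO2 and AGO3 were 0.54 and 0.60, below the fold threshold.

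**Figure D1:**
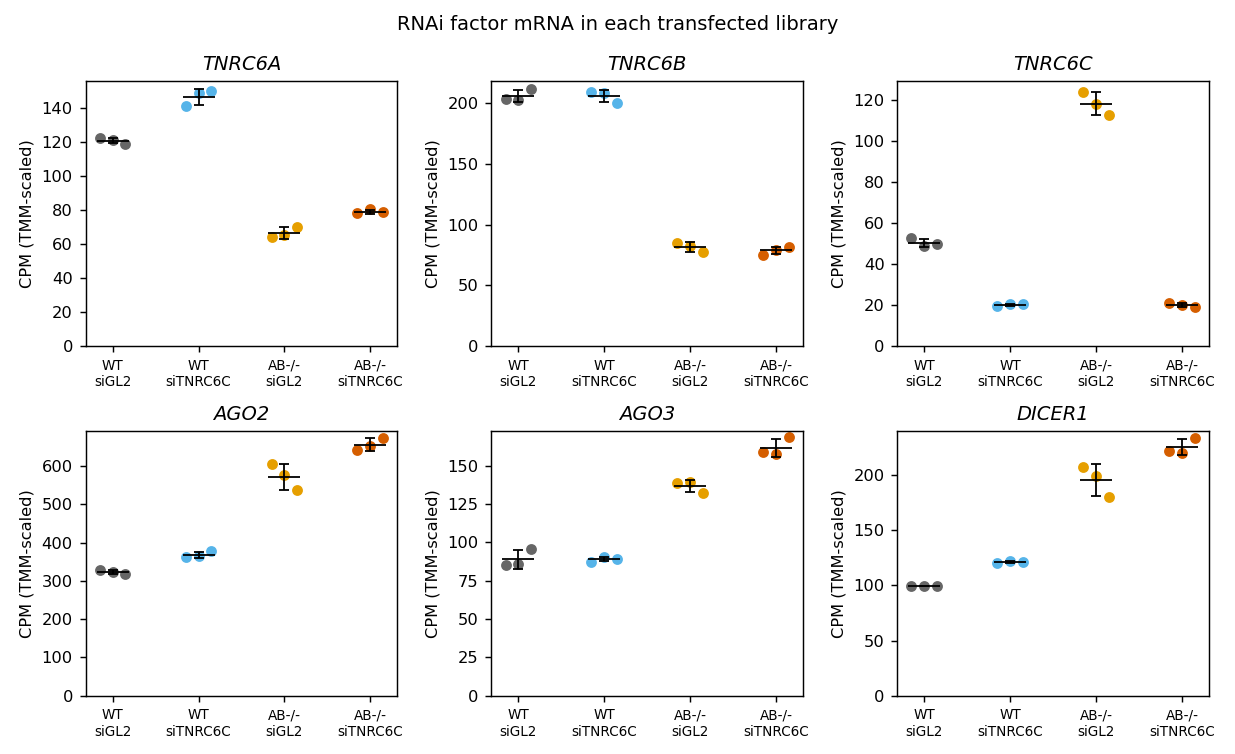
TMM-scaled CPM of 6 RNA silencing genes in each of the 12 transfected libraries (points), with the mean and SD of 3 libraries per group (black bars). TNRC6C is lowest in both siTNRC6C groups and highest in TNRC6AB-/- siGL2 cells at 113 to 124 CPM, while AGO2, AGO3 and DICER1 are higher in both TNRC6AB-/- groups than in both wild-type groups.

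Of the factors that act after TNRC6, the deadenylases come first. Of 19 deadenylation factors 1 rose (5.3%) and 3 fell (15.8%), with a median of -0.17, where 19.7% of all genes rose and 15% fell. BTG2, which brings deadenylases to mRNA and is also a p53 target, was at 52.2, 47.8 and 47.6 CPM in wild-type siGL2 and at 133, 137 and 141 CPM in TNRC6AB-/- siTNRC6C libraries, a rise of 1.48. CNOT6L, a catalytic subunit of CCR4-NOT, fell by 1.08 (SE 0.05) and CNOT3, another subunit of that complex, fell by 0.88 (SE 0.05). Of 15 decapping and P-body factors 2 rose, DCP2 by 1.07 (SE 0.05) and EIF4E2 by 0.68 (SE 0.06). That share, 13.3%, lies under the 19.7% of all genes and the 15.3% of protein-coding genes that rose. DCP2 is the decapping enzyme and went from 156, 157 and 154 to 318, 322 and 340.3 CPM. The EIF4E2 call was lost without wild-type siGL2 replicate 3, in DESeq2 and with RLE size factors.

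Lists of named targets of 4 microRNA families held more rises than falls. Of 29 let-7 targets tested of 30, 16 rose and 3 fell, with a median log2 fold change of 0.63 beside 0.11 over all genes. Of 14 miR-21 targets, 7 rose and 3 fell (median 0.68). Of 22 miR-17 family targets, 9 rose and 0 fell (median 0.50), and of 21 miR-200 family targets, 8 rose and 1 fell (median 0.48). In the order given, the shares that rose were 55.2%, 50%, 40.9% and 38.1%, beside 19.7% of all genes. Those that fell were 10.3%, 21.4%, 0% and 4.8%, beside 15%. Without wild-type siGL2 replicate 3 the let-7 list had 13 rises and 3 falls.

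NR6A1, an orphan nuclear receptor of early embryos, rose most of the let-7 list. It was at 16.7, 16.3 and 18.8 CPM in wild-type siGL2, 56.2, 54.7 and 51.99 CPM in TNRC6AB-/- siGL2 and 238, 243 and 244 CPM in TNRC6AB-/- siTNRC6C libraries. The groups did not overlap, and the rise over wild type was 3.81 (SE 0.06, adjusted p = 5.5e-18). HMGA2, a fetal chromatin protein, was at 288, 292 and 319 CPM, 668, 677 and 621 CPM and 1539, 1536 and 1604 CPM in the same order, a rise of 2.38 (SE 0.06, adjusted p = 2.4e-15). ARID3A, a DNA-binding protein, went from 26.7, 27.98 and 25.1 to 145, 154 and 159.8 CPM, a rise of 2.52 (SE 0.06). THBS1, the matrix protein thrombospondin 1, went from 13.4, 14.03 and 12.2 to 129, 128 and 134 CPM, a rise of 3.30 (SE 0.07). Other members went the other way. IGF2BP3, an oncofetal mRNA-binding protein, was at 266, 270.2 and 278 CPM in wild-type siGL2 and at 69.9, 69.6 and 70.4 CPM in TNRC6AB-/- siTNRC6C libraries, a fall of 1.96 (SE 0.04, adjusted p = 4e-16). MYC and HMGA1 were the other let-7 list members that fell.

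The 3′ UTR sites of 4 of these genes, and of IGDCC3, which is not on the list but is among the largest rises described below, are shown because the genes share the let-7 match but not the direction. Where a 3′ UTR held several matches, the site shown is the first that is followed by an A. Each line is 29 bases of the mRNA strand from GENCODE 29 transcripts (GRCh38), with the match to let-7 bases 2 to 8 in capitals.
NR6A1 site (chr9:124522304-124522332, minus strand): tgttgacaaagatgaCTACCTCaatggaa
HMGA2 site (chr12:65963298-65963326, plus strand): gccaacgttcgatttCTACCTCagcagca
ARID3A site (chr19:974511-974539, plus strand): gctgcctatctctgtCTACCTCaggtctg
IGDCC3 site (chr15:65328444-65328472, minus strand): tttggctctcagcacCTACCTCagccgga
IGF2BP3 site (chr7:23311789-23311817, minus strand): tgcatttttactcaaCTACCTCaggtatt
The 3′ UTR used held 5 matches in NR6A1, 4 in HMGA2, 4 in IGDCC3, 2 in ARID3A and 1 in IGF2BP3. Of these, 2 in NR6A1, 1 in HMGA2, 3 in IGDCC3, 1 in ARID3A and 1 in IGF2BP3 were followed by an A. THBS1 and DICER1, which rose, held 0 matches to these 7 letters in the 3′ UTR used.

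Of the other families, miR-200 targets included the mesenchymal factor ZEB1, which went from 14.1, 13.9 and 13.8 to 39.7, 38.2 and 42.1 CPM, a rise of 1.52 (SE 0.06), and the RNA-binding protein QKI, which rose by 1.05 (SE 0.05). ERRFI1, an inhibitor of the EGF receptor on the same list, was at 883, 871 and 831 CPM in wild-type siGL2 and 154, 156 and 166 CPM in TNRC6AB-/- siTNRC6C libraries, a fall of 2.44 (SE 0.05). The miR-21 targets showed both directions as well. SMAD7, an inhibitor of TGF-beta signalling, went from 3.59, 2.69 and 3.62 to 25.6, 25.1 and 23.1 CPM, a rise of 2.90 (SE 0.11), and RHOB, a small GTPase, rose by 1.42. TIMP3, an inhibitor of matrix proteases, was at 5.29, 5.64 and 5.01 CPM in wild-type siGL2 libraries and at 0.0798, 0.132 and 0.0462 CPM in TNRC6AB-/- siTNRC6C libraries. The miR-17 targets CDKN1A, BCL2L11 and CRIM1 rose by 1.70, 1.55 and 1.48.

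Across all protein-coding genes with a 3′ UTR, 14814 of them, the response followed 3′ UTR length. Genes were put in 5 equal bins. In the bin with the shortest 3′ UTRs (up to 279 bases), 11% rose and 24.9% fell, with a median of -0.20. In the bin with the longest (2533 bases and more), 23.3% rose and 10.2% fell, with a median of 0.19. The same gradient stood against the length of the whole transcript, from a median of -0.25 to 0.20. The parts of the 2 lengths were not separated.

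Seed matches were set against this background. A match is the reverse complement of bases 2 to 8, read on the mRNA strand only, so for let-7 the letters CTACCTC, which 1321 of the 14814 3′ UTRs held. Genes with a let-7 match had a median of 0.19 and those without a median of -0.04, and 24.98% against 14.3% rose. Genes with a match also had longer 3′ UTRs, with a median of 2565 bases against 819. With genes in 3 equal bins of 3′ UTR length, in the bin of the longest, genes with a let-7 match stood 0.11 above those without. In the middle bin the difference was 0.16 and in the shortest 0.08. Length still differed inside the bins, and in the longest the median was 3667 bases with a let-7 match and 2728.5 without. Over 15 microRNA families the same difference in the longest bin ran from 0.05 to 0.12. Over 7 strands of the siRNAs with enough matches it ran from 0.02 to 0.17, where 0.17 is siTNRC6C guide 1 and the next strand is at 0.098. For siRNA strands, bases 2 to 8 of the strand as listed were used, which may not be the seed in cells. In the middle bin the microRNA families ran from -0.0098 to 0.16 and the siRNA strands from -0.00037 to 0.053, and let-7, miR-92, miR-17 and miR-19 lay highest among the families, at 0.16, 0.15, 0.14 and 0.11. In the shortest bin the microRNA families ran from -0.073 to 0.19 and 6 siRNA strands from -0.068 to 0.16. These are medians over genes that share sequence and length, and no test was made of them.

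**Figure D2:**
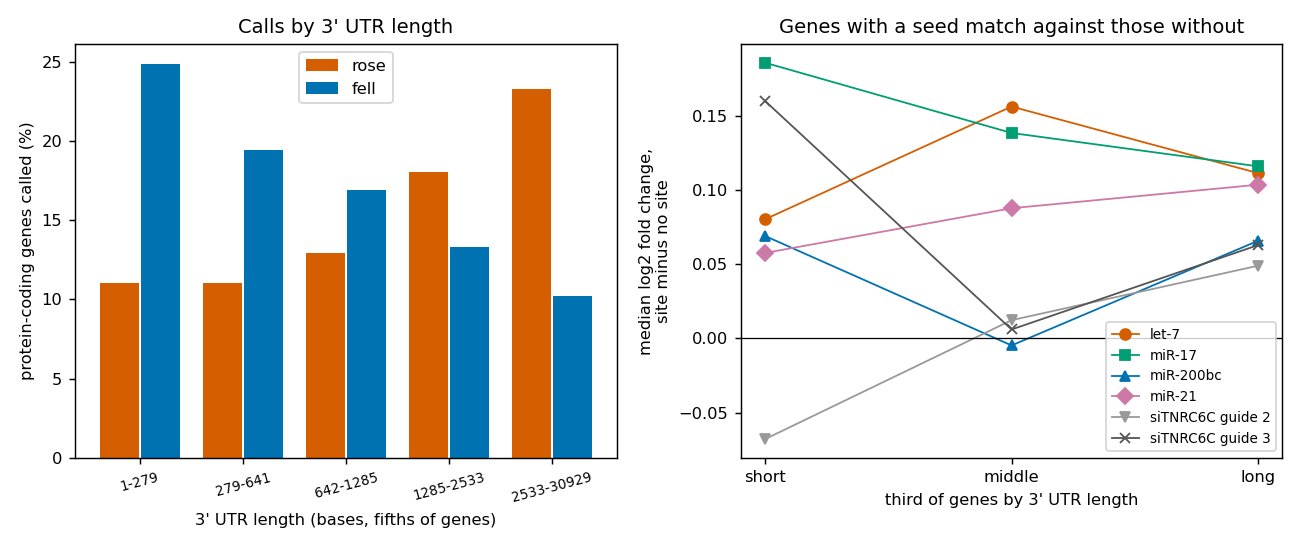
Left, percent of protein-coding genes that rose or fell in TNRC6AB-/- siTNRC6C over wild-type siGL2 cells, in 5 equal bins of 3′ UTR length. Right, the median log2 fold change of genes with a seed match minus that of genes without, within 3 equal bins of 3′ UTR length, for 4 microRNA families and siTNRC6C guides 2 and 3. Guide 1 is not drawn and stands at 0.17 in the longest bin, above the highest of 15 microRNA families at 0.12. Rises go from 11% to 23.3% as 3′ UTRs lengthen, and the let-7 difference is 0.16 in the middle bin and 0.11 in the longest.

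Among protein-coding genes with at least 5 CPM on average and no overlap between the groups, the 10 largest rises were in genes of varied function. A non-overlap in the same direction was seen for 33.9% of all tested genes upward and 30.3% downward. ANKRD1, a YAP target found in muscle and in wounds, was at 0.649, 0.693 and 0.199 CPM in wild-type siGL2 and at 55.95, 55.1 and 56.4 CPM in TNRC6AB-/- siTNRC6C libraries, a rise of 6.72 (SE 0.16). DCLK1, a microtubule-associated kinase, went from 1.32, 1.87 and 1.79 to 54.4, 60.05 and 63.1 CPM, a rise of 5.16. EPHA4, an ephrin receptor, went from 4.17, 4.26 and 4.19 to 114, 116 and 123 CPM, a rise of 4.80. MYBPH, COL3A1, MAMDC2, KRTAP2-3 and GLIS3 were the others near the top besides SLC2A3 and IGDCC3. SLC2A3, the high-affinity glucose transporter GLUT3, was at 39.04, 40.6 and 38.2 CPM and at 896, 883 and 953 CPM, and rose by 4.53 (SE 0.07). Its reads may be shared with the near-identical SLC2A14, and those of KRTAP2-3 with other keratin-associated genes.

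The largest falls came close to a loss of the transcript. ANXA10, an annexin of gastric epithelium, was at 23.3, 24.7 and 22.7 CPM in wild-type siGL2 and at 0, 0 and 0.0693 CPM in TNRC6AB-/- siTNRC6C libraries, which is too few reads for a fold. NRIP1 (chr21), a corepressor of nuclear receptors, was at 71.8, 70.5 and 65.96 CPM and at 0.399, 0.374 and 0.462 CPM, a fall of 7.39 (SE 0.11, adjusted p = 3.3e-18). Both were also near 0 in the double knockout under siGL2, where NRIP1 was at 0.228, 0.148 and 0.0596 CPM and ANXA10 at 0, 0.0494 and 0.0596 CPM. CPVL, DPYSL3, CYP4F11 and ISPD had most of their fall in the double knockout under siGL2, with ISPD at 11.8, 11.4 and 11.3 CPM in wild-type siGL2, 0.633, 0.913 and 0.804 CPM in TNRC6AB-/- siGL2 and 0.638, 0.791 and 0.716 CPM in TNRC6AB-/- siTNRC6C libraries. S100A14, SCG2, MKX and DDIT4 fell further under siTNRC6C. DDIT4, an inhibitor of mTORC1, was at 151, 147 and 147, then 23.2, 21.6 and 20.7 and then 12.1, 12.1 and 12.7 CPM.

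Among the called protein-coding genes, CCND1, DCBLD2, FAT1, CDK6 and HMGA2 gained the most CPM, in that order. CCND1, cyclin D1, was at 459, 464 and 392 CPM in wild-type siGL2 and at 2967, 3006 and 3173 CPM in TNRC6AB-/- siTNRC6C libraries, a rise of 2.80 (SE 0.08, adjusted p = 1e-14). CDK6, its kinase partner, was at 233, 232 and 226 CPM and at 1599, 1591 and 1671 CPM, a rise of 2.81 (SE 0.06). The largest falls in CPM among the called protein-coding genes were in EEF1A1, PABPC1, HSP90AB1, EEF2 and KITLG. KITLG, the ligand of the KIT receptor, was at 1833, 1793 and 1661 CPM, then 1155, 1086 and 977 CPM and then 482, 492 and 509 CPM.

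**Figure D3:**
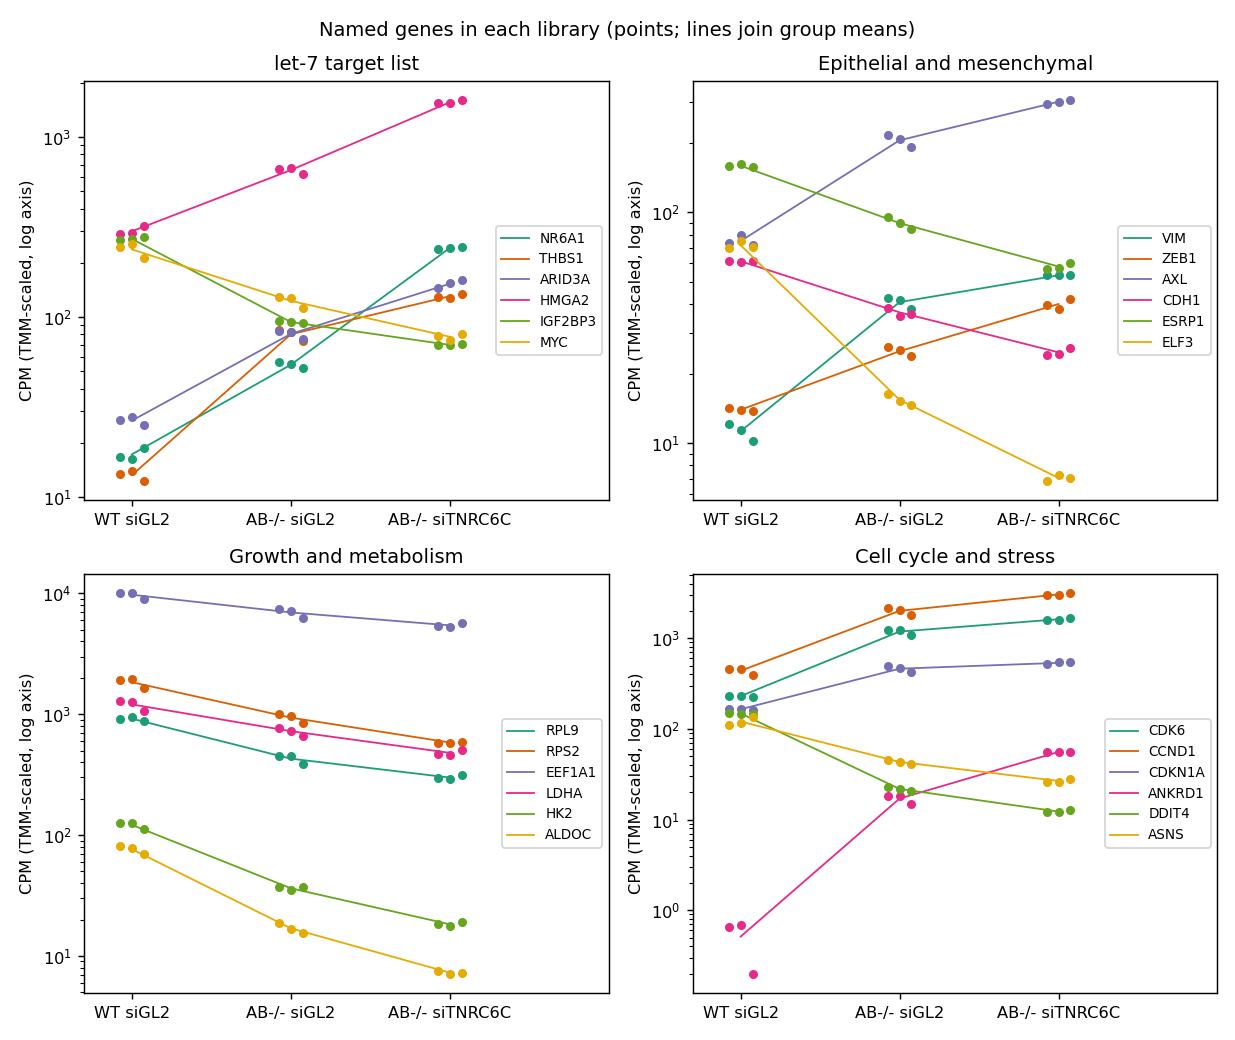
TMM-scaled CPM on log axes for 24 named genes in each library (points) of wild-type siGL2, TNRC6AB-/- siGL2 and TNRC6AB-/- siTNRC6C cells, with lines joining group means of 3 libraries. HMGA2, VIM, CCND1 and ANKRD1 are among those that rise along the 3 groups, and MYC, CDH1, RPL9 and DDIT4 among those that fall.

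Epithelial genes were more often lower and mesenchymal genes more often higher. Of 24 mesenchymal genes tested of 32, 13 (54.2%) rose and 2 (8.3%) fell (median 0.81), beside 19.7% and 15% of all genes. Some of these rises started under 1 CPM in wild-type siGL2, the lowest at a mean of 0.098 CPM. A gene high in only 1 group can pass the filter on low counts. Protein-coding genes with a mean under 1 CPM rose in 25.1% of cases. Of 38 epithelial junction and identity genes tested of 39, 2 rose and 15 fell (median -0.20). VIM, the intermediate filament of mesenchymal cells, was at 12.1, 11.4 and 10.2 CPM in wild-type siGL2 and at 53.3, 53.3 and 53.2 CPM in TNRC6AB-/- siTNRC6C libraries, a rise of 2.24 (SE 0.07). CDH1, the junction protein E-cadherin, was at 61.2, 61.1 and 61.7 CPM and at 24.1, 24.2 and 25.7 CPM, a fall of 1.31 (SE 0.05). ELF3, an epithelial transcription factor, was at 70.1, 75.2 and 70.4 CPM and 6.83, 7.28 and 7.07 CPM, and fell by 3.35. ESRP1, a splicing regulator of epithelial cells, was at 158, 161 and 157 CPM and 56.8, 57.2 and 60.5 CPM, and fell by 1.45. AXL, a receptor kinase, rose by 2.0, and FN1, fibronectin, by 1.54, while CLDN7, a tight junction claudin, fell by 1.41. The keratins KRT8, KRT18 and KRT19, chosen here after their values were seen, stayed between -0.02 and 0.06.

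Matrix and adhesion genes were examined next. Of 33 collagens and matrix enzymes 18 rose and 4 fell (median 0.74), and of 16 integrins tested 4 rose and 0 fell (median 0.42). The integrin share that rose, 25%, stood beside 19.7% over all genes and 15.3% over protein-coding genes. LAMB1, a laminin chain, went from 88.3, 88.96 and 88.03 to 222, 224 and 225 CPM, a rise of 1.34. HAS3, a hyaluronan synthase, and P4HA1, a collagen prolyl hydroxylase, fell by 2.95 and 2.16. ITGB8 rose by 2.42 (SE 0.06) and ITGB5 by 1.36. With counts rebuilt from TPM the collagen and matrix list had 13 rises and 3 falls, and without wild-type siGL2 replicate 3 it had 18 rises and 6 falls. The fibroblast collagens among the markers above lie on this list too, and the part of other cell types in it was not tested. Some rises of the list started under 1 CPM in wild-type siGL2, the lowest at a mean of 0.053 CPM.

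The YAP and TEAD target list had the highest median of the 38 lists examined, 1.12, with 17 rises and 1 fall among 25 tested genes. These shares were 68% and 4%, beside 19.7% and 15% of all genes. CTGF, also called CCN2, was at 3.67, 3.69 and 3.73 CPM in wild-type siGL2 and at 45.9, 47.1 and 49.5 CPM in TNRC6AB-/- siTNRC6C libraries, a rise of 3.68 (SE 0.07, adjusted p = 1.4e-16). CYR61, also called CCN1, went from 37.2, 36.4 and 41.3 to 123, 129 and 130.1 CPM, a rise of 1.74. PTPN14, a phosphatase that restrains YAP, rose by 2.18. Of 34 TGF-beta pathway genes 14 (41.2%) rose and 4 (11.8%) fell (median 0.52). The receptor ACVR2B rose by 1.67, while ID2, an inhibitor of differentiation, went from 106, 104 and 97.5 to 10.7, 10.9 and 9.82 CPM. Of 20 ERK feedback genes 9 rose and 2 fell (median 0.49). Without wild-type siGL2 replicate 3, 15 YAP and TEAD targets and 7 ERK feedback genes rose. Of 21 AP-1 and immediate early genes 3 rose and 9 fell (median -0.48), and FOS went from 67.5, 70.4 and 72.4 to 12.2, 12.02 and 12.5 CPM and JUNB from 92.2, 96.5 and 83.3 to 18.5, 20.2 and 18.4 CPM.

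Many interferon-stimulated genes and p53 targets were higher. Of 43 interferon-stimulated genes 24 rose and 0 fell (median 0.76), with 22 rises in TNRC6AB-/- siGL2 over wild-type siGL2 (16.5% of all genes were called there and 8.63% rose). IFIT2 was at 2.82, 2.46 and 3.25 CPM in wild-type siGL2 and at 22.3, 22.2 and 24.6 CPM in TNRC6AB-/- siTNRC6C libraries, a rise of 3.02 (SE 0.10). PARP14 and PARP12 rose by 1.24 and 1.67. DDX58, the RNA sensor RIG-I, was at 15.3, 16.2 and 17 CPM and 60.4, 59.3 and 61.6 CPM, and IFIH1, the RNA sensor MDA5, at 8.08, 7.77 and 6.52 CPM and 17.4, 17.03 and 17.1 CPM. In all, 5 (27.8%) of 18 RNA sensor and interferon genes tested of 22 rose and 1 (5.6%) fell. Of 17 class I antigen presentation genes tested 2 rose (11.8%) and 3 fell (17.6%), beside 19.7% and 15% of all genes, with HLA-E lower by 1.26 on the log2 scale. All 4 groups compared here were transfected with duplex RNA.

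Of 30 p53 targets 16 (53.3%) rose and 3 (10%) fell (median 0.75), beside 19.7% and 15% of all genes. In TNRC6AB-/- siGL2 over wild-type siGL2, 16 rose and 1 fell, where 8.63% and 7.86% of all genes did. CDKN1A, the cell cycle inhibitor p21, was at 168, 167 and 160.0 CPM in wild-type siGL2 and at 516, 549 and 543 CPM in TNRC6AB-/- siTNRC6C libraries, a rise of 1.70 (SE 0.06, adjusted p = 1.4e-13). PLK2, a stress kinase, went from 131, 134 and 128 to 504, 508 and 532 CPM, a rise of 1.97. TP53INP1 rose by 2.17. GDF15, a stress cytokine, fell by 1.35. Of 15 BCL2 family genes 6 (40%) rose and 2 (13.3%) fell, and the pro-death members BCL2L11 and PMAIP1 rose by 1.55 and 1.39.

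All 79 cytosolic ribosomal protein genes fell, with a median of -1.10. The count was 79 with RLE size factors and 76 with library size alone. RPL9 was at 919.6, 957 and 879 CPM in wild-type siGL2, 447, 449 and 391 CPM in TNRC6AB-/- siGL2 and 295, 289.5 and 313 CPM in TNRC6AB-/- siTNRC6C libraries, a fall of 1.62 (SE 0.06, adjusted p = 4.1e-13). RPS2 was at 1921, 1955 and 1652 CPM, 1003, 967 and 842 CPM and 579.8, 579 and 592 CPM. The 79 genes together took 8.62%, 8.73% and 8.83% of all TPM in wild-type siGL2 libraries, 6.92%, 7.03% and 6.54% in TNRC6AB-/- siGL2 libraries and 5.49%, 5.67% and 5.87% in TNRC6AB-/- siTNRC6C libraries. These genes have many processed pseudogenes to which reads may be assigned. The 113 ribosomal protein processed pseudogenes tested had 28 rises and 37 falls, and the share of TPM held by all 1082 annotated ribosomal protein processed pseudogenes was 0.189% to 0.190% in wild-type siGL2 and 0.131% to 0.144% in TNRC6AB-/- siTNRC6C libraries.

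MYC, which drives ribosome genes, was at 245, 254 and 213 CPM in wild-type siGL2, 128, 128 and 113 CPM in TNRC6AB-/- siGL2 and 78.4, 74.1 and 80.6 CPM in TNRC6AB-/- siTNRC6C libraries. The 3 groups did not overlap, and the fall from wild type was 1.61 (SE 0.07, adjusted p = 1.5e-12). Of 40 ribosome biogenesis factors 0 rose and 14 fell (median -0.49), and without wild-type siGL2 replicate 3 there were 21 falls. FBL, the nucleolar methyltransferase fibrillarin, went from 245, 233 and 184 to 63.7, 62.9 and 69.4 CPM, and NPM1, nucleophosmin, from 1920, 1856 and 1605 to 760.1, 750.5 and 809 CPM. Of 19 MYC network genes tested 1 rose and 7 fell. MXD1, an antagonist of MYC, rose by 1.16. EEF2, the translocating elongation factor, fell by 1.06 (SE 0.07), and PABPC1, the poly(A)-binding protein that TNRC6 proteins bind, by 0.87 (SE 0.07).

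**Figure D4:**
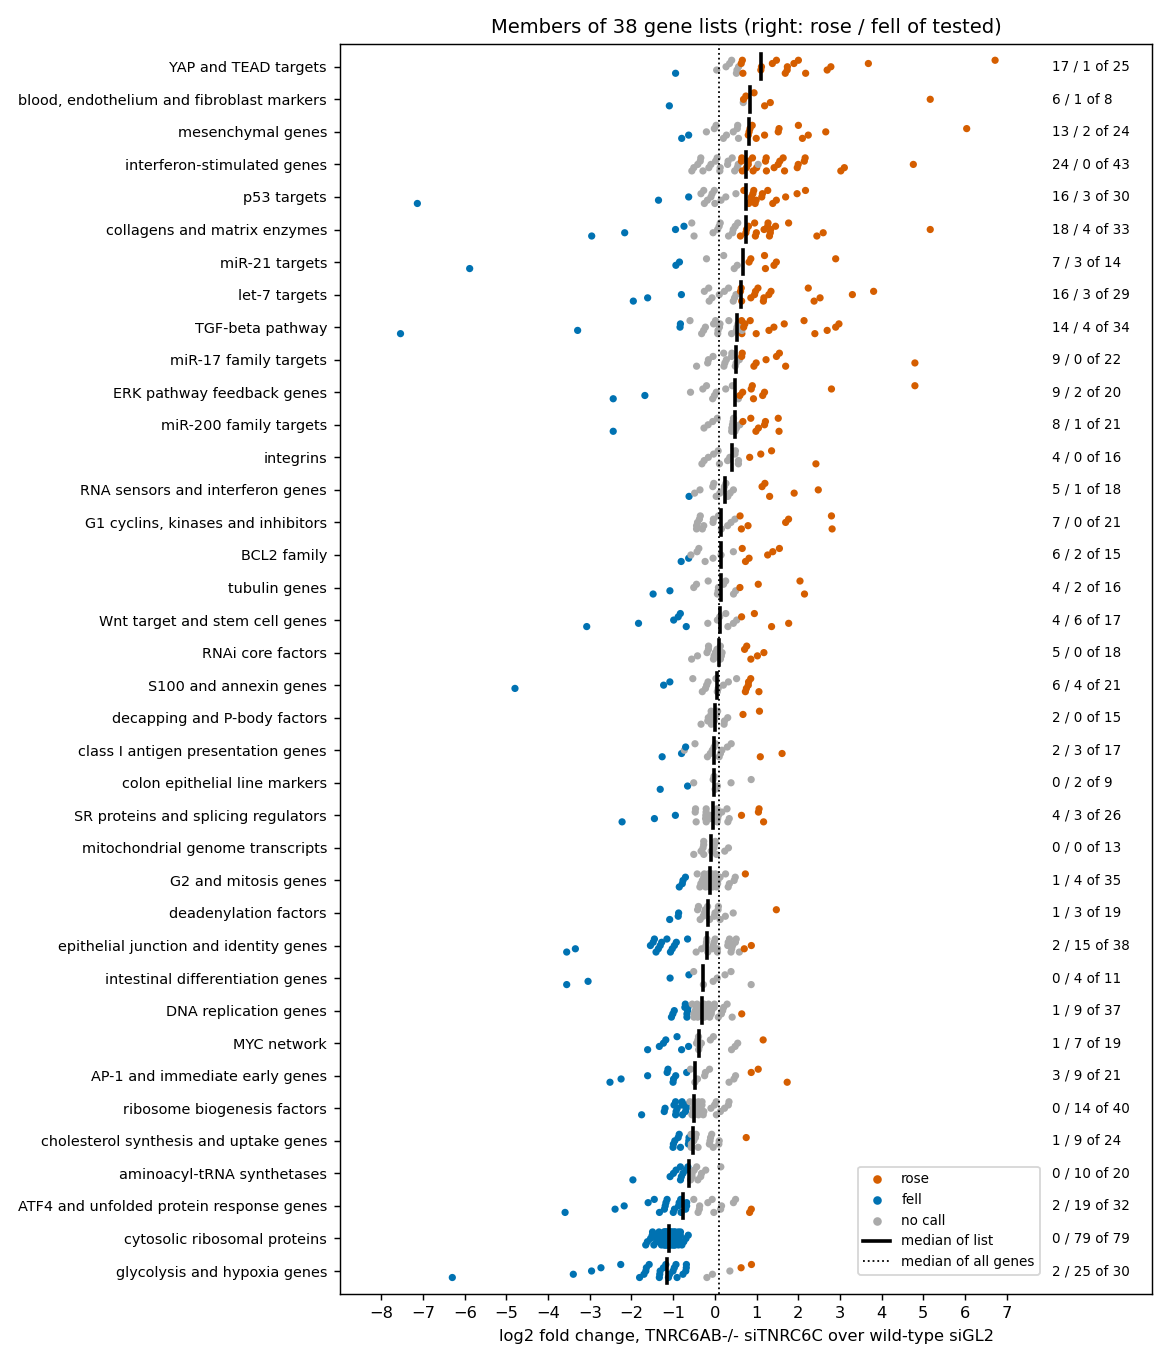
Log2 fold change of TNRC6AB-/- siTNRC6C over wild-type siGL2 for each tested member of 38 gene lists (points), coloured by call, with the median of each list (black bars), the median of all genes (dotted line) and the counts of rises and falls at the right. The YAP and TEAD targets lie at the top with a median of 1.12, and the ribosomal proteins and the glycolysis and hypoxia genes at the bottom with medians of -1.10 and -1.15.

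Genes of energy metabolism and biosynthesis were examined next. Of 30 glycolysis and hypoxia genes 2 rose and 25 fell (median -1.15), and 22 fell in TNRC6AB-/- siGL2 over wild-type siGL2, where 7.86% of all genes fell. HK2, hexokinase 2, was at 125, 126 and 113 CPM in wild-type siGL2 and 18.2, 17.6 and 18.9 CPM in TNRC6AB-/- siTNRC6C libraries, a fall of 2.73 (SE 0.06). ALDOC, an aldolase, went from 81.3, 77.9 and 69.9 to 7.45, 7.10 and 7.23 CPM, and LDHA, lactate dehydrogenase A, from 1292, 1261 and 1066 to 472, 459.6 and 506 CPM. GAPDH, often used as a reference gene, was at 2485, 2426 and 2044 CPM and at 1076, 1073 and 1129 CPM, a fall of 1.09 (SE 0.08, adjusted p = 1.7e-09). HPRT1, another reference gene, was at 72.2, 69.5 and 63 CPM and at 31.9, 31.9 and 33.9 CPM, a fall of 1.07 (SE 0.07).

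Of 32 ATF4 and unfolded protein response genes 2 rose and 19 fell (median -0.76). ASNS, asparagine synthetase, went from 112, 116 and 135 to 26.3, 25.8 and 28.1 CPM and fell by 2.18 (SE 0.07), and TRIB3 fell by 1.60. Of 20 aminoacyl-tRNA synthetases 0 rose and 10 fell (median -0.61), among them GARS, which charges glycine, at 228, 235 and 233 CPM against 58.7, 58.7 and 60.7 CPM. Of 24 cholesterol genes 1 rose and 9 fell (median -0.53). SQLE and INSIG1 fell by 1.0 and 0.99. Without wild-type siGL2 replicate 3, 12 of the synthetases and 13 of the cholesterol genes fell. None of 13 mitochondrial genome transcripts was called either way in the 12-library edgeR fit, with 8 of them at an adjusted p under 0.05, as were 60.9% of all genes.

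Cell cycle lists differed in direction. Of 21 G1 cyclins, kinases and inhibitors tested 7 (33.3%) rose and 0 fell, beside 19.7% and 15% of all genes. CDKN2B, the inhibitor p15, went from 10.004, 10.2 and 9.51 to 32.3, 33.9 and 34.9 CPM. Of 37 DNA replication genes 1 rose and 9 fell (median -0.31), and with library size alone 3 fell. Without wild-type siGL2 replicate 3, 5 of the G1 genes rose and 12 of the DNA replication genes fell. MCM4 and MCM6, subunits of the replicative helicase, fell by 1.01 and 1.04. Of 35 G2 and mitosis genes 1 rose and 4 fell, with CDC20 down by 0.85 and ANLN, a cytokinesis protein, up by 0.73. The share of DNA replication genes that fell, 24.3%, lies above that over all genes, and the share of mitosis genes, 11.4%, lies under it.

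Differentiation genes of the gut were mostly too low to test. Of 30 intestinal differentiation genes 11 were tested, 0 rose and 4 fell. HNF4A, a hepatic and intestinal transcription factor, was at 13.4, 12.1 and 12.7 CPM in wild-type siGL2 and at 1.57, 1.47 and 1.59 CPM in TNRC6AB-/- siTNRC6C libraries. Of 17 Wnt target and stem cell genes tested 4 rose (23.5%) and 6 fell (35.3%). PROM1, the surface protein CD133, went from 23.9, 24.2 and 23.04 to 3.03, 2.97 and 2.45 CPM and DKK1, a Wnt inhibitor, from 167, 168 and 145 to 43.2, 43.7 and 48.04 CPM, whereas AXIN2, a Wnt target, rose by 1.36. Of 21 S100 and annexin genes tested 6 rose (28.6%) and 4 fell (19.0%), and of 16 tubulin genes 4 rose (25%) and 2 fell (12.5%). Over all genes 19.7% rose and 15% fell. TUBB2A was at 35.4, 35.5 and 29.1 CPM in wild-type siGL2 and at 132, 138 and 143 CPM in TNRC6AB-/- siTNRC6C libraries. Tubulin paralogs are alike in sequence, so their split is uncertain.

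The step made by siTNRC6C inside the double knockout was tested directly (8.03% of all genes called). These comparisons share libraries with the one above, and their values are set side by side only. Of all genes, 1008 rose (4.36%) and 850 fell (3.67%) in TNRC6AB-/- siTNRC6C against TNRC6AB-/- siGL2 cells, and with library size alone 1234 rose and 598 fell. Falls outnumbered rises in DESeq2 (651 rises and 819 falls), with counts rebuilt from TPM (754 and 913), with no filter on low counts (1013 and 1040), in a fit of all 24 libraries (312 and 491) and without any 1 of the TNRC6AB-/- siTNRC6C libraries (695 and 771, 693 and 771, and 816 and 832 without replicates 1, 2 and 3). In wild-type cells siTNRC6C gave 190 rises (0.821%) and 482 falls (2.08%), together 2.9%. The effect of siTNRC6C differed between the genotypes for 8.74% of all genes, with 844 higher (3.65%) and 1179 lower (5.1%) in the double knockout. That balance turned with library size alone (1174 higher and 624 lower), with a stricter filter on low counts (992 and 677), without wild-type siGL2 replicate 3 (802 and 712) and without its replicate 1 (1261 and 1236). IGDCC3, whose let-7 site is shown above, was at 0.449, 0.564 and 0.883 CPM in wild-type siGL2, 1.97, 1.80 and 1.37 CPM in TNRC6AB-/- siGL2 and 11.7, 13.1 and 13.7 CPM in TNRC6AB-/- siTNRC6C libraries, and the siTNRC6C step was 2.89 (SE 0.15, adjusted p = 5.5e-10). For NR6A1 that step was 2.15 (SE 0.05, adjusted p = 2.7e-14) and for HMGA2 1.25 (SE 0.06). Of the 29 let-7 targets 7 rose and 1 fell at this step, of the 43 interferon-stimulated genes 2 rose and 2 fell, of the 30 p53 targets 0 rose and 1 fell, and of the 79 ribosomal protein genes 0 rose and 3 fell, with a median of -0.43 beside 0.0041 over all genes.

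Some genes moved one way with the knockout and back with siTNRC6C. SLC1A3, a glutamate transporter, was at 16.5, 16.95 and 15.8 CPM in wild-type siGL2, 57.7, 54.5 and 53.1 CPM in TNRC6AB-/- siGL2 and 12.98, 12.97 and 11.6 CPM in TNRC6AB-/- siTNRC6C libraries. TNFSF18, a ligand of the TNF family, was at 3.74, 3.80 and 3.84, then 12.3, 11.1 and 11.2 and then 3.22, 3.12 and 3.81 CPM. Neither was called between TNRC6AB-/- siTNRC6C and wild-type siGL2. CEMIP2, a hyaluronidase of the cell surface, and DOCK4, a guanine exchange factor, rose at both steps, by 1.92 and 1.25 and by 0.97 and 1.45. PCDH7, a protocadherin, fell by 1.04 and then 1.09.

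Exon use was read from transcript TPM for 9 genes, 1 annotated skippable exon each, the one whose mean inclusion over the 12 transfected libraries was nearest 50%. The study tested these genes for splicing, but the exons used here were not matched to its events. They need not be the same exons, so these values are no check of the study's events. With 3 libraries on each side the exact two-sided permutation test cannot go below p = 0.1, so no exon could pass 0.05 by this test, and no other test was made. In EPB41L2, a cytoskeletal protein 4.1, the 63-base exon at chr6:130880144-130880206 was included at 35.0%, 35.3% and 36.1% in wild-type siGL2 libraries, 66.6%, 68.8% and 67.5% in TNRC6AB-/- siGL2 libraries and 74.1%, 74.6% and 74.2% in TNRC6AB-/- siTNRC6C libraries. The difference from wild-type siGL2 was 38.8 percentage points (exact p = 0.1), with no overlap and with SDs of 0.54 and 0.26 points in the 2 groups, while the gene's CPM was not called. In KIF21A, a kinesin, the 21-base exon at chr12:39330242-39330262 was included at 30.8%, 28.7% and 30.1% and at 43.7%, 40.6% and 42.1%, a difference of 12.3 points (exact p = 0.1), also with no overlap. The other 7 exons overlapped between the groups, with differences from -2.53 points in APIP to 10.6 points in FKBP14, where replicate 3 of TNRC6AB-/- siTNRC6C was at 100% and without it the difference was 3.36 points. These shares rest on the assignment of short reads to annotated transcripts. Beside 19.7% and 15% of all genes, and 15.3% and 16.9% of protein-coding genes, 4 of 26 splicing regulators tested rose (15.4%) and 3 fell (11.5%). Among them were RBFOX2 up by 1.06 and NOVA2 down by 2.23, beside ESRP1 and QKI above.

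**Figure D5:**
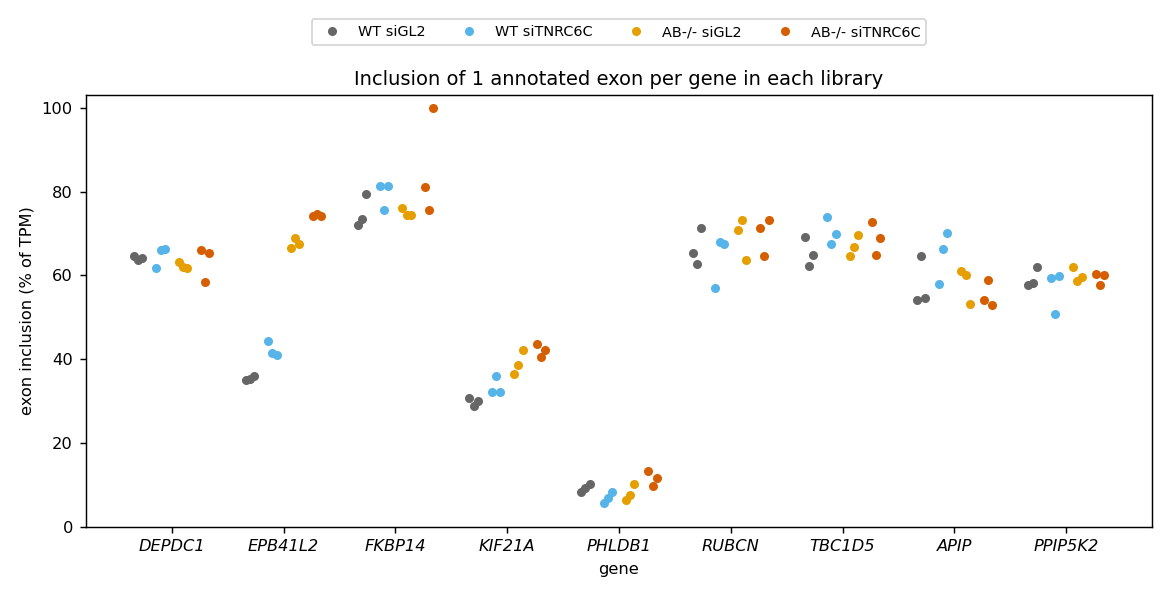
Percent of spanning transcript TPM that includes 1 annotated exon, for 9 genes in each of the 12 transfected libraries (points). EPB41L2 separates at 35.0% to 36.1% in wild-type siGL2 and 74.1% to 74.6% in TNRC6AB-/- siTNRC6C libraries, and KIF21A separates less, while the other genes overlap.

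Genes that do not code for protein rose more often. Of 8063 such genes tested, 2267 rose and 935 fell, with a median of 0.43, beside 2301 rises and 2542 falls and a median of -0.02 among 15072 protein-coding genes. Long intergenic RNAs had a median of 0.46 and processed pseudogenes 0.51. Low protein-coding genes (mean under 1 CPM) had a median of 0.36. The retained-intron share of the libraries, given above, moved in the same direction, and its part in this was not tested.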

How the data were processed

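RNA-seq libraries of HCT116 cells were made from total RNA with a strand-specific Illumina kit, per the labels. The authors quantified reads per transcript with Salmon 0.11.0 and deposited expected counts and TPM, and the submitters' processing notes also name STAR 2.5.3a, DESeq2 and hg38. The transcript tables of the 12 transfected libraries were summed to genes here by joining transcript identifiers without version to GENCODE 29, which matched 199368 of 199612 transcripts. Expected counts were rounded to whole numbers. Genes passing edgeR's filterByExpr (23135) were fitted with 1 mean per group for 4 groups of 3 libraries, TMM scaling and the quasi-likelihood test (edgeR 4.0.16, R 4.3.3), with Benjamini-Hochberg adjustment over all genes. Genes were called at an adjusted p under 0.05 where the fold, on the log2 scale, also passed 0.6. The SE of a log2 fold change was its size over the square root of F. CPM are TMM-scaled.

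Genes named in the text are those the study discusses, the 10 largest rises and falls of protein-coding genes with at least 5 CPM and no overlap between groups, the 5 largest changes in CPM each way, up to 4 members of each of 38 lists by adjusted p, and the top genes of the siTNRC6C step and of its difference between genotypes. A few genes of these lists are counted but not reported here by name. The genes and lists were chosen with earlier results of these data known. Exon inclusion was the share of TPM from transcripts that span an exon and include it. Seed matches were sought in the 3′ UTR of each gene's protein-coding transcript with the highest mean TPM over the 12 libraries. Alternatives covered DESeq2 1.42.0, limma voom 3.58.1, other scalings, filters and sets of libraries, and counts from TPM and mean transcript length. They also covered a replicate block and leaving out, in turn, each library of TNRC6AB-/- siTNRC6C and of wild-type siGL2. No library of TNRC6AB-/- siGL2 or of wild-type siTNRC6C was left out. Depth, given with the results, sets the counting error only. The code was tested on simulated data. The authors' tables of the other 12 libraries entered only 1 alternative.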

Additional observations from a re-analysis of the deposited data

Results flagged for a closer look

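The effect of siTNRC6C was compared between TNRC6AB-/- and wild-type cells with an interaction term in edgeR. Of 23135 genes, 8.74% had an effect that differed at an adjusted p below 0.05 and beyond 0.6 on the log2 scale, with 844 higher and 1179 lower in the double knockout, and with library size alone 1174 were higher and 624 lower. Of 180 named genes 61 passed, and the 23 that differed by more than 1 are given here as the effect in TNRC6AB-/- minus that in wild type.

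TNRC6C itself was among them, at -1.24 (adjusted p = 1.5e-08). siTNRC6C lowered it by 2.57 in TNRC6AB-/- cells, where it started higher, and by 1.33 in wild-type cells. The let-7 site carriers IGDCC3 and NR6A1 differed by 2.93 and 2.19 (adjusted p = 2.9e-06 and 2.1e-11), with effects of 2.89 and 2.15 in TNRC6AB-/- and of -0.04 and -0.03 in wild-type cells. The glucose transporter SLC2A3 differed by 2.33, with 1.59 and -0.74. VIM, an intermediate filament protein, differed by 1.13, higher with siTNRC6C in TNRC6AB-/- cells and lower in wild-type cells.

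SLC1A3 and TNFSF18 showed the opposite order, at -3.59 and -3.04 (adjusted p = 2e-14 and 8.6e-11). siTNRC6C moved them by 1.45 and 1.28 in wild-type and by -2.14 and -1.76 in TNRC6AB-/- cells. TGFB2, a TGF-beta ligand, stood at -2.28 and COL12A1, a collagen, at -1.08. The other genes with a larger effect in TNRC6AB-/- cells were at 1.77 for ANKRD1, 1.29 for KRTAP2-3, 1.27 for BMF, 1.19 for TUBB2A, 1.17 for TUBA1A, 1.61 for DOCK4, 1.40 for MAP1B and 1.23 for ADAM19. The other genes with a lower effect there were at -1.205 for S100A14, -1.15 for MKX, -1.43 for PROM1, -1.495 for DKK1, -1.34 for TUBA4A and -1.12 for SRGAP1. Adjusted p over these 23 genes ran from 2e-14 to 0.00097. Groups of 3 libraries were too small for a test of single outlying libraries.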

How the results depend on the processing

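Of 162 named genes called, 151 kept their call and direction under all 16 alternatives. The exceptions included AGO2, AGO3 and TNRC6C with counts from TPM and mean transcript length, and EPCAM with library size alone. The log2 fold change of TNRC6A turned from -0.61 to 0.15 with counts from TPM and mean transcript length. The cause was not tested.

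For TNRC6AB-/- siTNRC6C over wild-type siGL2, 4568 genes rose, against 2589 with a stricter filter, which tests fewer genes, and 2951 with all 24 libraries. Leaving out 1 library gave 3432 to 5559 rises and 3381 to 4056 falls. Other tools and scalings gave counts within 1.5 times (DESeq2 3373 and 3825, RLE 3950 and 4036).

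For TNRC6AB-/- siGL2 over wild-type siGL2, 1996 rises became 3790 in limma voom, 1254 with the stricter filter and 1301 with all 24 libraries. For siTNRC6C in the double knockout, 1008 rises became 651 in DESeq2, 2429 in limma voom, 654 with the stricter filter and 312 with all 24 libraries, and 850 falls became 1337, 529 and 491 in limma voom, with the stricter filter and with all 24. For siTNRC6C in wild-type cells, 190 rises became 528, 108 and 51 in the same order, and 482 falls became 101 with all 24. For the difference between genotypes, 844 higher became 1399 in limma voom and 195 with all 24, and 1179 lower became 624 with library size alone, 677 with the stricter filter and 423 with all 24. Without wild-type siGL2 replicate 3 it was 712. It ran from 712 to 1289 over the TNRC6AB-/- siTNRC6C and wild-type siGL2 libraries, the only ones left out in turn. The cause was not tested.

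EPB41L2 inclusion differed by 41.6 points from read counts against 38.8 from TPM. With the replicate number as a block, 4657 genes rose and 3462 fell, and 0 named calls were lost. Same-numbered libraries of TNRC6AB-/- siTNRC6C and wild-type siGL2 did not deviate together (correlations of -0.053, -0.001 and -0.138), and the numbers were not taken as pairs. Between TNRC6AB-/- siGL2 and wild-type siGL2 the correlations were 0.242, -0.003 and 0.371 for the same numbers and -0.368 to 0.227 for unlike numbers. With 3 libraries a side, no exon could pass the exact test used.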
